A study of Danio rerio with 32 samples.

Results

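The genes described here were those whose signal was highest on day 1 of differentiation in zebrafish muscle cell cultures and lower on every other day sampled. They were chosen by their readout. In each of 2 array batches the day 1 mean was set against the highest mean of days 0, 4, 7, 10 and 14, the smaller of the 2 margins was taken as the score, and the 100 probe sets with the highest score were kept. The choice was made among 10795 probe sets that carried a single gene symbol, out of 15502 analysed, and the 100 probe sets belonged to 97 genes of the 8793 with such a probe set. Every comparison of day 1 with another day was therefore used to select the members, and their day 1 values are a description that no test supports.

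RNA came from mononuclear cells of the dorsal muscle of pooled adult zebrafish, expanded in growth medium with fetal bovine serum and then moved to a differentiation medium with 2% horse serum. Affymetrix arrays of the zebrafish transcriptome were run on 6 days, from the day labelled day 0 of differentiation to day 14. Batch 1 held 2 arrays a day. Batch 2 held, in the order of the days named above, 3 arrays for day 0, 3 for day 1, then 4, 5, 3 and 2 arrays. All arrays shared the tissue and culture scheme, and no treatment other than the medium was named. The labels name no fish line. The study describes the arrays as made from α-actin–RFP fish, whose red fluorescent protein is driven by a muscle actin promoter. Skin and viscera were taken off first, muscle and bone were minced together, and cells were enriched by red cell lysis, a density gradient and pre-plating, with no sort for a muscle marker.

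The study also calls day 0 the time of isolation. In muscle culture low serum brings myoblasts out of growth and toward fusion, while other cells of the muscle, such as resident leukocytes and fibroblasts, may still be present. Leukocytes carry antigen-presenting molecules, immunoglobulin or T cell receptor chains and the enzymes of their granules. NF-kappaB and interferon-regulatory factors are the transcription factors through which many of these cells answer injury. Egg envelope glycoproteins form the coat around the fish egg and are made in the ovary of zebrafish.

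Of the 32 arrays, 31 were used. Day 0 replicate B of batch 1 had a scale factor of 915.22 and correlated with no other array above 0.17, and the rule left it out. The labels graded 24 arrays good and 8 poor. Scale factors, by which a dim array is multiplied, were 19.69 and 10.1 on day 1 replicates A and B of batch 1 against a median of 4.1 on its other days, where only day 0 replicate A with 23.41 and day 4 replicate A with 9.52 were above 4.11, and 3.13 to 8.24 against 1.77 to 7.0 in batch 2. The ratio of 3′ to 5′ signal of GAPDH, a sign of RNA quality, was 1.74 and 2.15 on day 1 against 1.19 to 2.43, with a median of 1.296, in batch 1, and 3.34 to 9.72 against 2.2 to 11.997 in batch 2. The part of these differences in the results was not tested. Muscle labels were borne out in part. The muscle intermediate filament gene desma had a mean log2 level of 7.58 at day 0 and 11.86 at day 14 of batch 1, and of 7.87 and 9.04 in batch 2. On those days the muscle actin gene acta1a had 9.045 and 12.36, then 8.70 and 9.80. The myogenic factor gene myog had 6.41 and 8.95, then 7.16 and 7.54. The fast muscle myosin light chain gene mylpfa had 12.31 and 11.60, then 10.24 and 8.21, on 1 of its 2 probe sets. On the other it had 10.90 and 11.35, then 8.93 and 8.63. Day means of myod1, the myogenic determination factor, stayed between 5.57 and 7.11 in batch 1 and between 6.185 and 7.24 in batch 2. The neutrophil and macrophage lysozyme gene lyz had a mean log2 level of 14.30 at day 0, 14.66 at day 1 and 7.52 at day 7 of batch 1, and 14.06, 14.10 and 9.61 on those days of batch 2. The leukocyte genes ptprc, lcp1 and coro1a were higher at day 1 than at day 0 in batch 1 but lower in batch 2. From day 0 to day 1 of batch 1, ptprc had 9.22 and 11.43, and lcp1 11.30 and 12.85. In batch 2 ptprc had 11.29 and 10.94, and lcp1 12.11 and 11.75. The brighter coro1a probe set had 11.87 and 12.49, then 11.65 and 11.50.

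The margin of day 1 was small for most members. The score, a log2 difference, ran from 1.33 for zp3.1 to 0.156 for scn8aa, with a median of 0.297. A score of at least 1 was reached by 3 members and of at least 0.5 by 18. The 3 lowest members were mob1a, abcf2a and scn8aa, and the next probe sets outside were nitr2b with 0.155, armc1 with 0.154 and zmynd19 with 0.154, so the boundary lies in a continuous range. Only 302 probe sets with a single symbol had any positive score. The batch 1 margin had a median of 0.708 and the batch 2 margin one of 0.327, and the batch 2 margin was the smaller for 78 members.

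**Figure D1:**
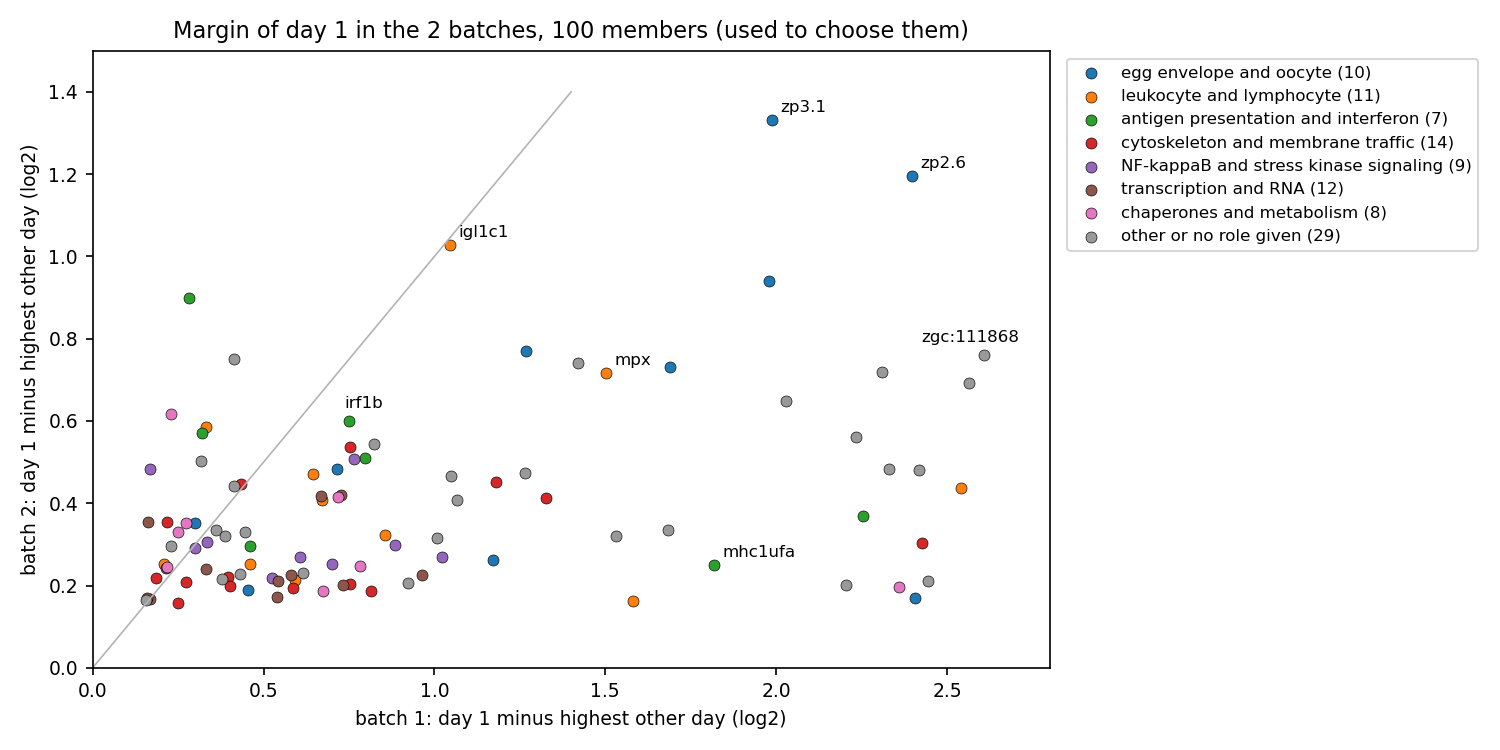
Margin of day 1 over the highest other day mean in batch 1 (x axis) and batch 2 (y axis), both in log2 units, for the 100 member probe sets coloured by role, with a line of equality. The margins chose the members. Most points lie below the line, and zp3.1, zp2.6 and igl1c1 are the only members with both margins above 1.

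The arrays behind the mean did not rise as one. In batch 1 both day 1 arrays were above all 9 arrays of other days for 50 of the 100 members, against 8.34% of probe sets with a single symbol. In batch 2 all 3 day 1 arrays were above all 17 others for 1 member, hsd3b7, against 0.0648% of probe sets. The same gene was the 1 member that did so in both batches, against 0.00926%. These shares use the contrast that chose the members, so nothing is read from them. As background, limma called 11.5% of all 15502 probe sets higher at day 1 than on the other days. How many members were among them was fixed by the choice and is not given.

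The array that carried the day 1 height differed between members. The highest day 1 array of batch 1 was replicate A for 57 members and replicate B for 43. In batch 2 it was replicate A for 21, B for 37 and C for 42. Without replicate A of batch 1 the score of 20 members was 0 or below, without replicate C of batch 2 that of 19, and without both that of 32. In batch 1, 95 members had their highest array at day 1. In batch 2, 67 did, and 20 were highest on day 4 replicate A. That array was graded good, and the other day 4 arrays of batch 2 were graded poor. The rule favoured a high day 1 mean in each batch, and these counts were not made over all probe sets. Nothing is read from how many members had their highest array at day 1. Within the 3 runs of batch 2 that held both days, day 1 was above day 0 in all 3 for 41 members, in 2 for 50 and in 1 for 9. The rule kept the mean of these 3 differences above 0 for every member, so nothing is read from this tally.

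**Figure D2:**
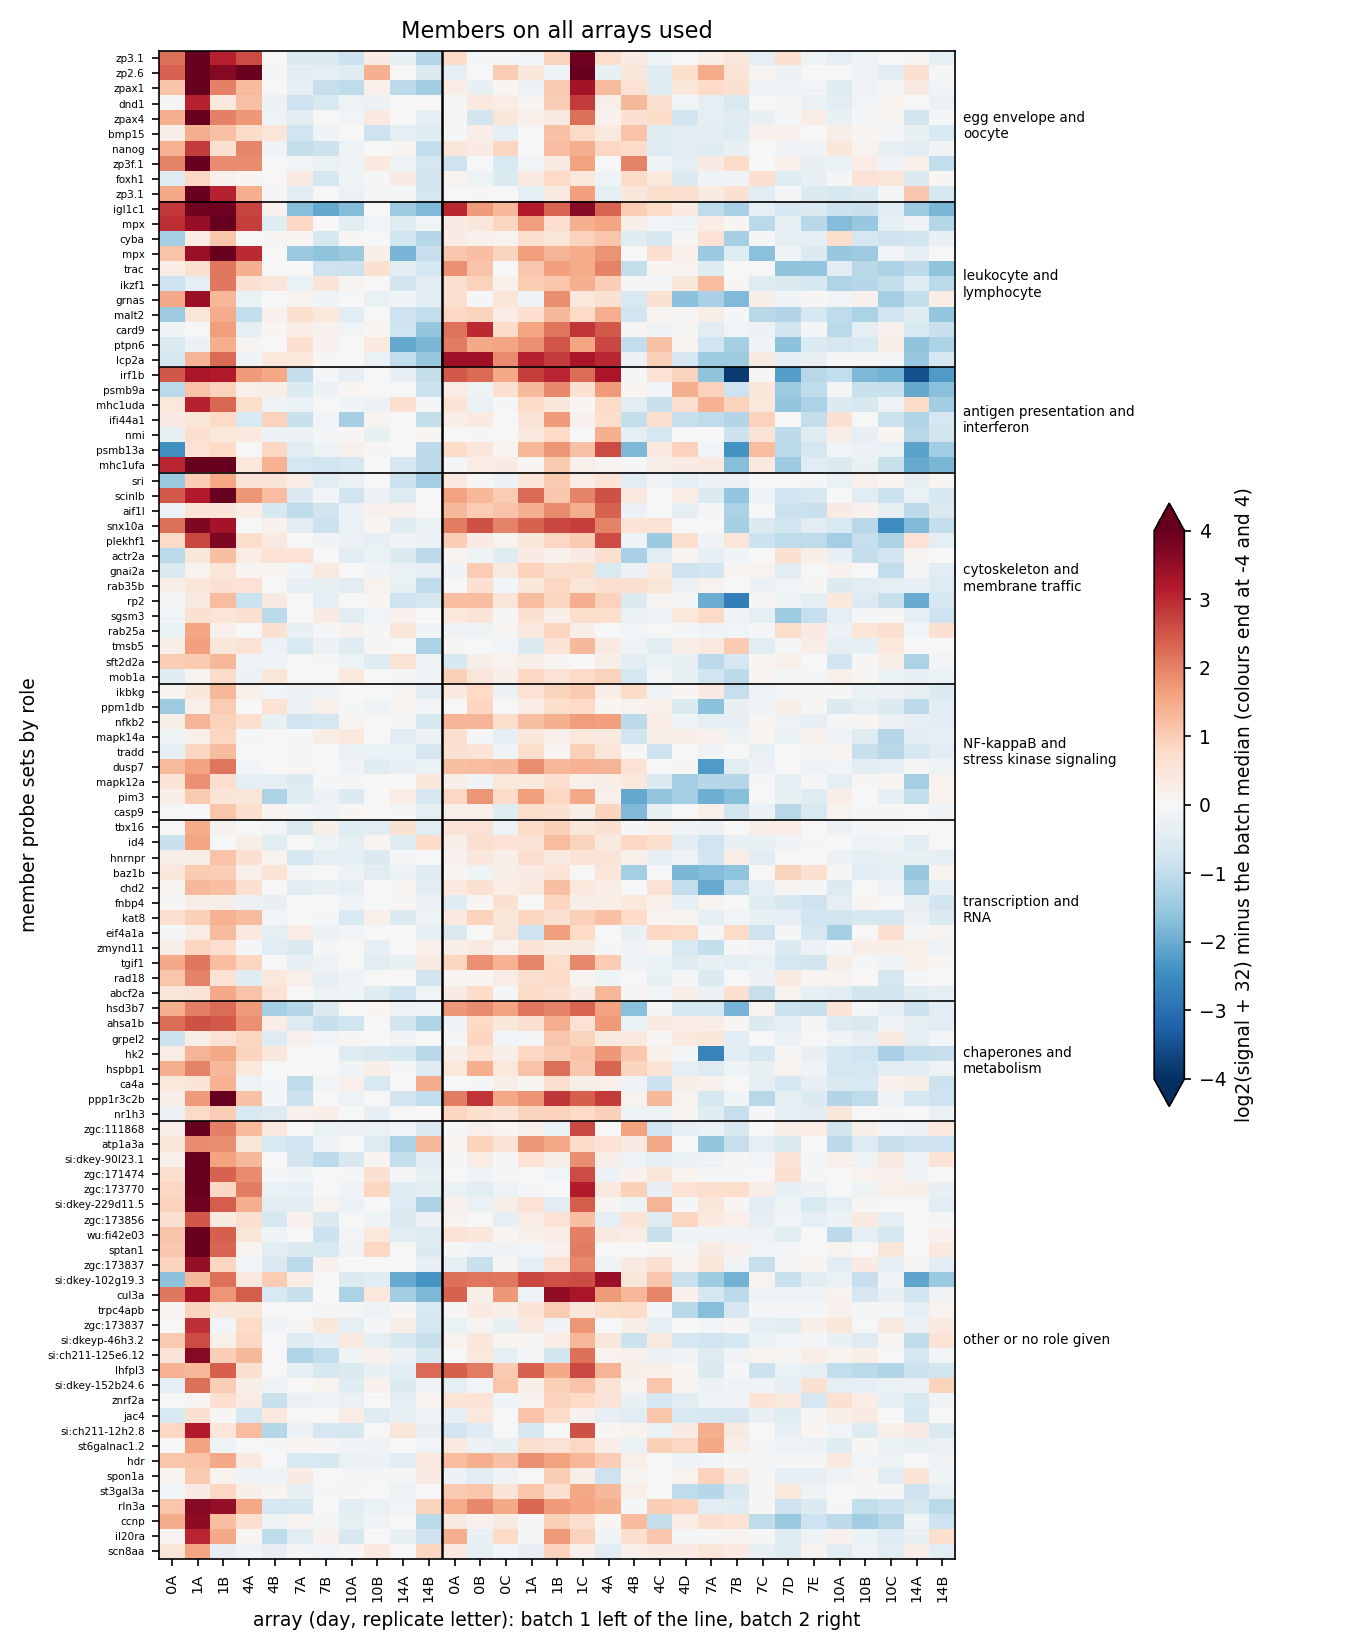
Level of each member probe set (down the plot, grouped by role) on the 31 arrays used (across, batch 1 left and batch 2 right), as log2(signal + 32) minus the median of that probe set in the batch. Red is above the batch median and colours end at -4 and 4. The egg envelope genes and many genes outside the role groups are darkest on day 1 replicate A of batch 1 and day 1 replicate C of batch 2, and several leukocyte genes are also red at day 0 and on day 4 replicate A of batch 2.

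Members were grouped by known role after their values had been seen. Egg envelope and oocyte genes took 10 probe sets of 9 genes, leukocyte and lymphocyte genes 11 of 10, antigen presentation and interferon genes 7, NF-kappaB and stress kinase signaling 9, cytoskeleton and membrane traffic 14, transcription and RNA 12, and chaperones and metabolism 8. The other 29 probe sets fell into none of these groups. Signals below are normalized signals, which share a linear scale across the arrays.

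Egg envelope genes led the ranking. The gene zp3.1, a zona pellucida glycoprotein of the egg coat, had signals of 4157 and 906 on the day 1 arrays of batch 1. Its signals on the 9 other arrays of that batch had a lowest value of 16.9, a median of 56.7 and a highest value of 630.6. In batch 2 its day 1 signals were 27, 87 and 912, and the 17 other arrays lay between 16.5 and 73.4, with a median of 31.0. Of the day 1 arrays of batch 2, replicate C was far above the other days, replicate B was above the highest of them by a small margin, and replicate A lay within them.

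The related zp2.6 showed the same arrays. Its day 1 signals were 3572 and 776 in batch 1, where day 4 replicate A reached 920.1 and the median of other days was 28.7. In batch 2 they were 48, 19 and 1219, against a highest value of 131.0 on the other days. Among the egg coat genes zpax1 had 2117 and 447 in batch 1 and 27, 111 and 661 in batch 2. The related zpax4 had 1829 and 370, then 73, 85 and 386. For both, the other days stayed at or below 297.9 in batch 1 and 132.7 in batch 2. The fifth gene, zp3f.1, had 2248 and 362 in batch 1 and 76, 118 and 325 in batch 2, where day 4 replicate B was higher at 433.8. A second zp3.1 probe set ranked near the lower end, with 2867 and 827, then 27, 68 and 210. These genes lie in families of near copies, and the leading zp3.1 probe set is marked as one whose probes can match other sequences, so the signal may be shared among copies.

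Genes of oocytes and germ cells followed this course in part. Signals of dnd1, an RNA-binding protein that germ cells need to survive, were 2516 and 365 in batch 1 and 252, 489 and 1789 in batch 2, against at most 643.3 and 620.4 on other days. The oocyte growth factor bmp15 was low throughout, with 190 and 151.8 on day 1 of batch 1 and 36, 120 and 83 in batch 2, against at most 102.7 and 118.5. The pluripotency factor nanog, which zebrafish eggs store as maternal RNA, had 630 and 113, then 27, 104 and 125, against at most 335.4 and 73.8. The Nodal pathway factor foxh1 stayed at or below 91 on every array. In all 4 genes the day 1 arrays overlapped those of other days in batch 2, and in dnd1, nanog and foxh1 they did so in batch 1 as well.

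**Figure D3:**
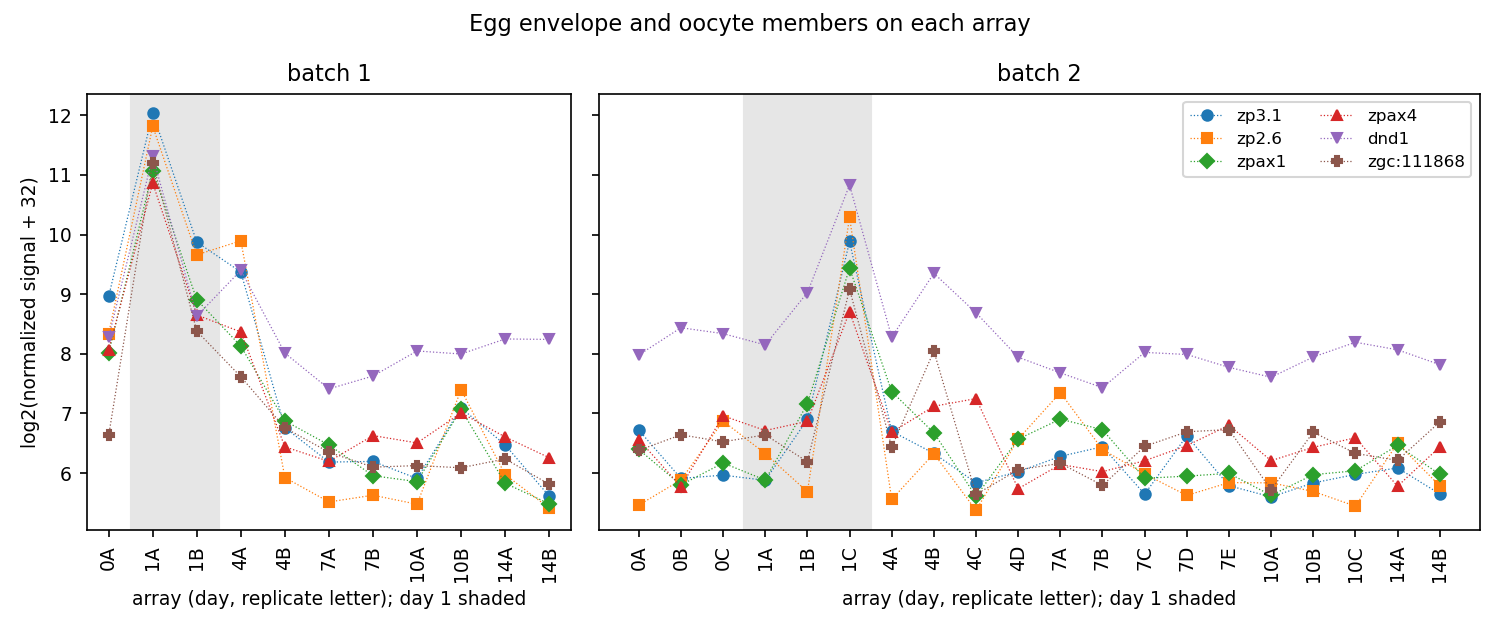
Level of 6 members, as log2(normalized signal + 32), on each array in order of day and replicate letter, batch 1 left and batch 2 right, with day 1 shaded. All 6 are highest on day 1 replicate A of batch 1 and on day 1 replicate C of batch 2, where zp3.1 had signals of 4157 and 912, and in batch 2 day 1 replicate A lies with the other days for zp3.1 and replicates A and B do for zp2.6.

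In all, 24 members were highest of batch 1 on day 1 replicate A and highest of batch 2 on day 1 replicate C. They comprised 7 egg envelope and oocyte probe sets, 14 outside the role groups, snx10a, nfkb2 and tmsb5. The share of all probe sets highest on the same 2 arrays was not computed. Among those outside the groups, zgc:111868 had 2333 and 301 in batch 1 and 68, 41 and 510 in batch 2. The gene zgc:173770 had 1724 and 66, then 26, 29 and 514. Further examples with the same arrays were si:dkey-90l23.1, zgc:171474, si:dkey-229d11.5, zgc:173856, wu:fi42e03 and both zgc:173837 probe sets. By their probe set names, zgc:171474 and zgc:173856 share a transcript cluster, as do zgc:173770 and the higher ranked zgc:173837 probe set. The probe sets of zgc:173770, zgc:173856 and si:dkey-229d11.5 are marked as ones whose probes can match other sequences. These members may therefore share signal. The sptan1 member belongs here too, but it shares a transcript cluster with si:dkey-229d11.5, and the other sptan1 probe set had negative margins of -1.13 and -0.91, so its assignment to the spectrin gene is uncertain.

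Lists of egg and germ cell genes were added after these values had been seen, and they were only counted. Of 16 egg envelope genes measured, 5 were members, and of 24 oocyte and germ cell genes, 4 were. The mean log2 level of the egg envelope list was 8.96 on day 1 replicate A of batch 1, 7.49 on replicate B, 7.43 at day 0 and 7.66 on day 4 replicate A, and at most 6.52 on the remaining 7 arrays. The same 4 arrays of batch 1 had its highest scale factors and GAPDH ratios, given above, and the part of this in the egg envelope signal was not tested. In batch 2 it was 7.84 on day 1 replicate C and 6.02 to 6.69 on all other arrays. The oocyte and germ cell list reached 8.39 at day 0 and 8.13 on day 4 replicate A of batch 1, both above its 7.67 and 7.51 on day 1, and 8.03 on day 1 replicate C of batch 2. Of 8 genes of ovarian somatic cells none was a member, and that list had 6.96 and 7.29 on day 1 of batch 1 against 6.21 to 6.99 on other days, and 7.00 to 7.54 against 6.53 to 7.30 in batch 2. Whether these RNAs came from oocytes or from other cells was not tested. Without the 2 arrays on which the egg envelope genes were highest, the same rule kept 43 of the 100 members.

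Leukocyte and lymphocyte members had a broader course. The gene igl1c1, an immunoglobulin light chain constant region made by B cells, had day 1 signals of 2854 and 2927 in batch 1 and 1888, 1035 and 2637 in batch 2. At day 0 it had 1384 in batch 1 and 1705, 664 and 501 in batch 2. The later days of batch 2 ran from 1050 on day 4 replicate A down to 29 on day 14 replicate B. From day 7 on every array was at 168 or lower. Day 0 of both batches and day 4 replicate A of batch 2 were above that level. In batch 1 the 9 arrays of other days had a median of 42.4.

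The 2 member probe sets of mpx, the myeloperoxidase of neutrophil granules, showed this course with more spread. The higher ranked one had 644 and 2598 on day 1 of batch 1, where day 0 had 438 and day 4 had 375 and 11. In batch 2 it had 550, 260 and 457 on day 1, 197, 218 and 297 at day 0, and 511 on day 4 replicate A. The other had 1857 and 4315, then 1374, 1090 and 1207, against 1356 and 1511 on the highest array of other days. A further pair of mpx probe sets on the array was not selected and had smaller margins of -0.11 and -0.42.

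Other leukocyte members were lower. The T cell receptor alpha constant gene trac had 90 and 301, then 231, 361 and 317 on day 1, with 414 at day 0 and 465.8 on day 4 in replicate A of batch 2. The lymphoid transcription factor ikzf1 had 34 and 333 in batch 1 and 187, 200 and 254 in batch 2. Its other days reached 96.7 and 222.8. The T cell signaling adaptor lcp2a had 707 and 1356 in batch 1, where no other array was above 353.0, but in batch 2 its day 1 signals of 1113, 925 and 1273 lay below the 1390 and 1394 of day 0 replicates A and B. The oxidase subunit cyba had 988 and 1727, then 1093, 970 and 1316, with 1513 on day 4 replicate A of batch 2.

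The whole leukocyte list moved beside these members. It had 28 measured genes, 3 of them members, and a mean log2 level of 10.94 and 11.43 on day 1 of batch 1 against 8.56 to 10.15 on its other days. In batch 2 its day 1 range of 10.28 to 10.86 lay within the 7.60 to 10.98 of the other days, where day 0 held 10.60 to 10.98. An offset was added to every signal before the log2 step, and no detection calls were used. These levels therefore cannot show whether a leukocyte marker was absent on any day. In these bulk samples fewer cells of a type and less RNA per cell cannot be told apart.

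Antigen presentation and interferon genes formed the next group. The transcription factor irf1b, which interferon and injury signals induce, had signals of 8724 and 8252 on day 1 of batch 1 and 7444, 9072 and 5239 in batch 2. It had 5033 at day 0 of batch 1 and 6056, 5273 and 3152 in batch 2. On day 4 replicate A of batch 2 it reached 10665, above every day 1 array. The other day 4 arrays of that batch, all graded poor, had 1033, 1612 and 2028. Later arrays were at 1125 or lower in both batches.

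Subunits of the immunoproteasome, which cuts peptides for class I molecules, followed in part. The gene psmb9a had 724 and 605 on day 1 of batch 1, where the other days stayed between 130.5 and 372.8, and 1102, 1731 and 671 in batch 2, where day 4 replicates A and D had 1483 and 1193. The related psmb13a had 610 and 716, then 764, 1051 and 680, with 1879 on day 4 replicate A of batch 2. In both genes the batch 2 arrays overlapped, and psmb13a overlapped in batch 1 as well. The class I genes mhc1ufa and mhc1uda differed between batches. Signals of mhc1ufa were 3576 and 2457 on day 1 of batch 1, where arrays of day 4 and later stayed at or below 238, but in batch 2 nearly all arrays were high, from 797.2 to 4390.3 on other days against 3438, 6987 and 3874 on day 1. Signals of mhc1uda were 432 and 241 in batch 1, and 179, 139 and 98 in batch 2, within its other days. The interferon-linked ifi44a1 and nmi had margins of 0.319 and 0.459 in batch 1 and 0.570 and 0.297 in batch 2. Of 25 genes in an antigen processing and interferon list added after the values were seen, 7 were members, and of 10 lymphocyte genes 5 were. The mean log2 level of the former list was 9.36 and 9.43 on day 1 of batch 1 against 8.34 to 9.25 on its other days, and 9.21 to 10.09 against 7.95 to 10.06 in batch 2.

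**Figure D4:**
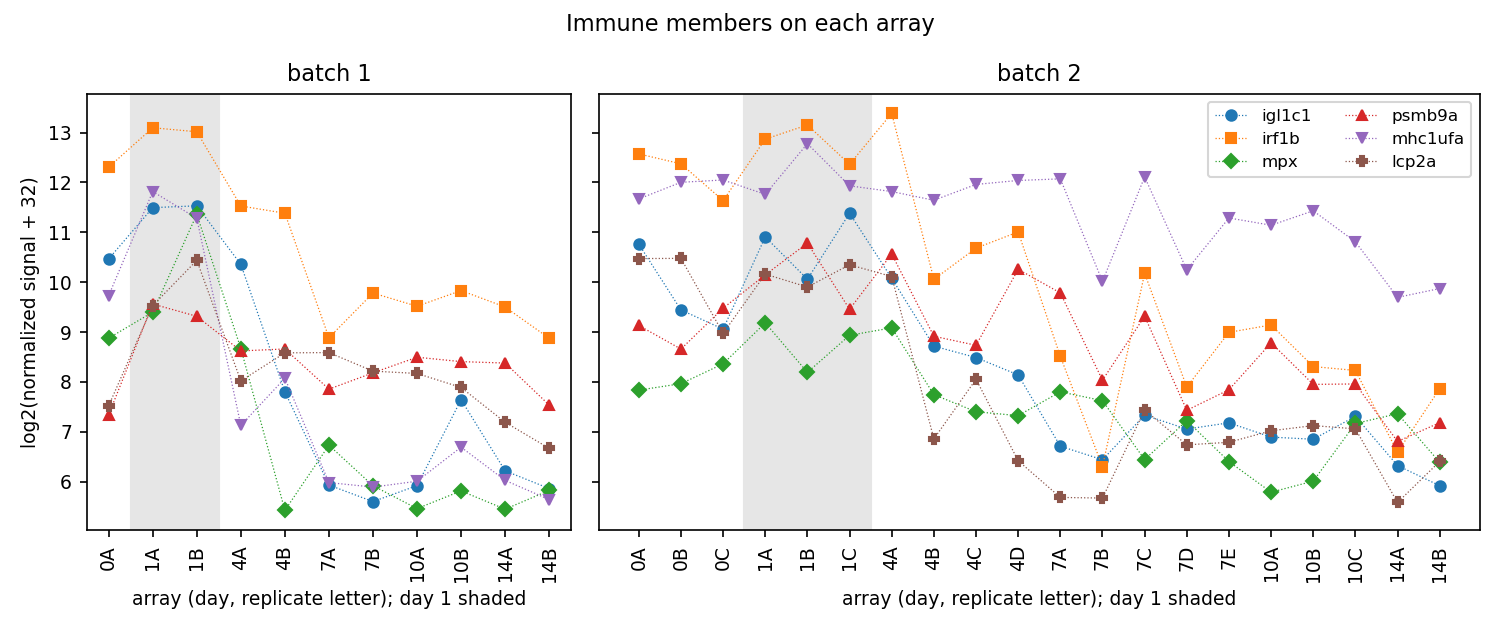
Level of 6 members, as log2(normalized signal + 32), on each array in order of day and replicate letter, batch 1 left and batch 2 right, with day 1 shaded. The mpx points are those of the higher ranked probe set. On day 4 replicate A of batch 2 irf1b is at its highest signal of 10665 and the other 3 arrays of that day lie lower, while mhc1ufa is high on all arrays of batch 2 and low from day 4 in batch 1.

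Signaling members had a median score of 0.27, and their levels differed. In batch 1 the median of other days was 1113.4 for nfkb2 and 190.2 for mapk12a. Of 13 genes of the NF-kappaB pathway list, 3 were members. The regulatory kinase subunit ikbkg had 688 and 1274, then 1027, 1257 and 1406, against at most 570.2 and 1200.6 on other days. The NF-kappaB subunit gene nfkb2 had 3047 and 2242, then 2641, 3092 and 3659, against at most 1874.6 in batch 1 and 3591.0 on day 4 replicate A of batch 2. The tumor necrosis factor receptor adaptor tradd had 1634 and 2186, then 1544, 993 and 1834, against at most 921.8 and 1427.5. In batch 1 the day 1 arrays of all 3 were above every other array, and in batch 2 they overlapped. The stress kinases mapk14a and mapk12a had scores of 0.291 and 0.252, and dusp7, a phosphatase that acts on MAP kinases, one of 0.268. The apoptosis initiator casp9 was the single member of the p53 and apoptosis list and ranked among the lowest members with 0.167.

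Among the remaining groups, sri, the calcium-binding protein sorcin, had 2966 and 4347, then 3852, 5707 and 3412, against at most 2125.1 and 4025.8 on other days. The actin-severing gene scinlb had 1925 and 3774, then 3890, 1679 and 3231, but 4770 on day 4 replicate A of batch 2. The sodium pump subunit atp1a3a had 684 and 665, then 430, 349 and 199, against at most 434.6 and 353.0. The steroid dehydrogenase hsd3b7 of bile acid synthesis had 2096 and 2422, then 3041, 2698 and 3460, against at most 1661.2 and 2524.9. It was the member noted above whose day 1 arrays overlapped no other array in either batch. The HSP90 co-chaperone ahsa1b was the single member of the 47 heat shock genes, with 4191 and 3975 in batch 1 and 937, 1711 and 927 in batch 2. On other days ahsa1b reached 3372.3 in batch 1 and 2046.2 in batch 2. The glycolytic enzyme hk2 was the single member of the hypoxia and glycolysis list. It had 1690 and 1926, then 1592, 1766 and 1968, against at most 1218.5 and 2988.2 on other days. For ahsa1b and hk2 the highest array of batch 2 was day 4 replicate A. The differentiation inhibitor id4 was the single member of the myogenic list. It had 390 and 108, then 97, 178 and 134, against at most 200.6 and 124.2 on other days.

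Most lists of neighbouring programs held no member. Of 22 lists, 15 held none, among them 46 immediate early transcription factors, 49 cell cycle genes and 47 muscle structure genes, and no list held more than 3. Members were 97 of the 8793 genes with a single symbol. Lists of these sizes would hold few or none at that share, so nothing is read from the absence. The immediate early list, which is known to respond to cell isolation and medium change, had a mean log2 level of 10.52 and 10.74 on day 1 of batch 1 against 8.84 to 10.49 on other days. In batch 2 it had 10.24 to 11.07 on day 1 against 9.35 to 11.31, its highest array being of another day. Of the 97 member genes, 30 were in at least 1 list and 67 in none.

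Member genes with more than a single probe set did not repeat the peak in most cases. For 27 genes the array held 32 further probe sets, and 2 of these had a positive score, dusp7 with 0.073 and zgc:173856 with 0.015. A second cul3a probe set had margins of -1.39 and 0.17, a second bmp15 probe set 0.49 and -1.34, and a second dnd1 probe set -0.84 and 0.97.

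The order of the other days was not fixed by the rule, apart from the limit set by the highest of them, and was tested. Day 0 was set against the mean of days 4, 7, 10 and 14 in a limma fit across all probe sets with the hybridization run as a covariate, on 4 arrays of day 0 and 22 of the later days. It asked whether members were already above their later level before day 1. Day 0 was higher in 33 of 100 members, against 13.3% of all probe sets, and lower in 0, against 17.4%. The median log2 difference of members was 0.57 and that of all probe sets was -0.10. A positive difference was seen in 90 members, but the share of all probe sets with one was not computed. At an unadjusted p under 0.05, 42 members were higher and 0 lower, but the share of all probe sets at that threshold was not computed. Without day 0 replicate B of batch 2 the count was 20. The share of all probe sets was not computed for this fit or the next. In batch 1 alone, with 1 array of day 0, 9 were higher and 2 lower.

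The largest differences were in irf1b and igl1c1. For irf1b day 0 was higher by 2.96 ± 0.42 (SE, log2, adjusted p = 7.38e-06, limma). For igl1c1 it was higher by 2.95 ± 0.38 (adjusted p = 1.82e-06). The vesicle-sorting gene snx10a followed with 2.602 ± 0.34 (adjusted p = 1.87e-06). Its day 0 signals were 439 in batch 1 and 919, 1331 and 878 in batch 2, while arrays from day 7 on had at most 204. For hsd3b7 the difference was 2.00 ± 0.39 (adjusted p = 0.000293). These 4 kept their call when any 1 array was left out, and irf1b lost it only when the array set aside was put back (adjusted p = 0.055), as hsd3b7 did only in batch 1 alone (adjusted p = 0.22).

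**Figure D5:**
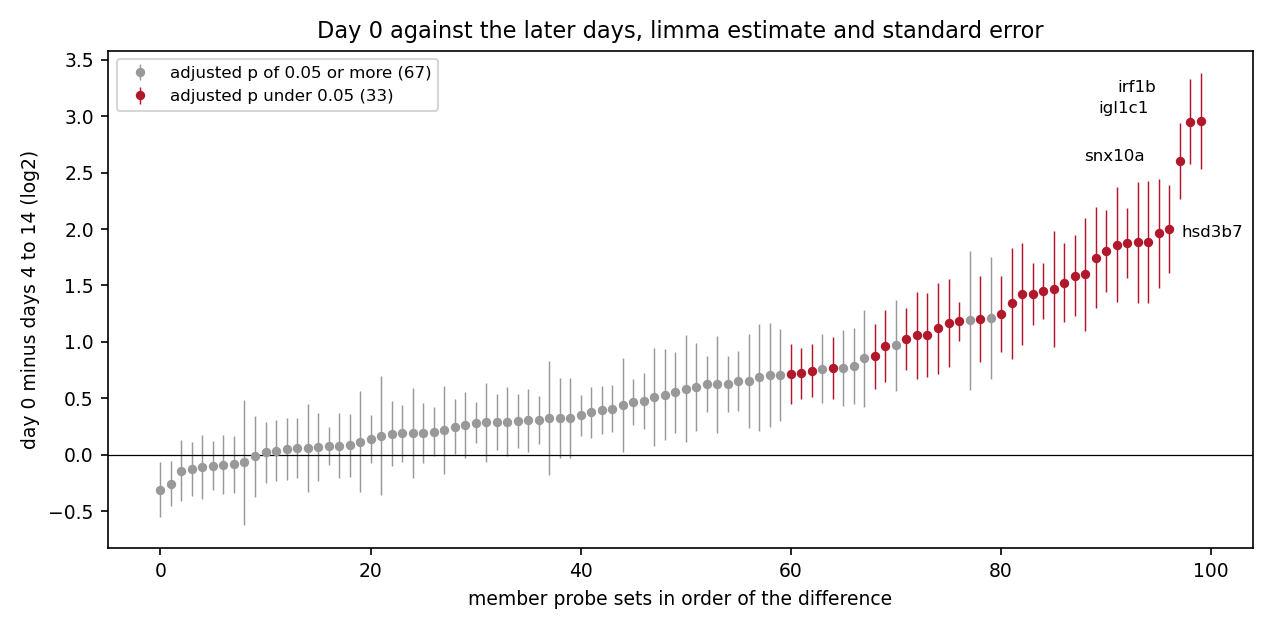
Log2 difference of day 0 from the mean of days 4 to 14 (y axis) for each member probe set in rising order (x axis), as the limma estimate with its standard error. The 33 members called at an adjusted p under 0.05 are in red, all above 0, with irf1b at 2.96 the highest.

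The role groups are small and were drawn after values were seen, and differences between them were not tested. Over all probe sets 13.3% were higher at day 0. By role, day 0 was higher in 8 of 11 leukocyte and lymphocyte probe sets, with a median of 1.34. Among egg envelope and oocyte probe sets it was higher in 1 of 10, with a median of 0.70. That 1 was nanog, by 1.06 ± 0.38 (adjusted p = 0.0328), and its call was lost without any 1 of the 4 day 0 arrays or without day 4 replicate C of batch 2, with adjusted p of 0.05 to 0.13. The leukocyte and macrophage list as a whole had 22 of 37 probe sets higher at day 0 and 1 lower, with a median of 1.49. The lymphocyte list had 4 of 13 higher and 1 lower, with a median of 0.32. Higher members included the lower ranked mpx probe set by 1.86 ± 0.51 (adjusted p = 0.0062) and lcp2a by 1.96 ± 0.48 (adjusted p = 0.00276). The mpx call was lost with the omitted array put back (adjusted p = 0.082), and the lcp2a call with arrays graded good (adjusted p = 0.1). In signaling, day 0 was higher in 3 of 9, dusp7 by 1.42 ± 0.27, pim3, a survival kinase, by 1.52 ± 0.35, and nfkb2 by 1.03 ± 0.28, the last with an adjusted p of 0.053 without day 0 replicate B of batch 2 and of 0.2 with the omitted array put back. With arrays graded good pim3 had 0.78 (adjusted p = 0.076). The homeobox repressor tgif1 was higher by 1.45 ± 0.25 and hdr, a death receptor of blood cells, by 1.18 ± 0.17, and with the omitted array put back tgif1 had 0.66 (adjusted p = 0.2). In antigen presentation and interferon genes 2 of 7 were higher, irf1b and mhc1ufa, the latter by 1.88 ± 0.54 and with an adjusted p of 0.075 without day 0 replicate A of batch 1. For psmb9a the difference was 0.06 ± 0.39, for sri -0.11 ± 0.29 and for cyba 0.06 ± 0.30 (adjusted p = 0.929, 0.802 and 0.895).

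The course after day 4 was tested next. Days 10 and 14, on 9 arrays, were set against day 4, on 6. Members were lower in 17 cases, against 4.83% of all probe sets, and higher in 0, against 6.83%. At an unadjusted p under 0.05, 36 were lower and 0 higher, again without a share of all probe sets at that threshold. The median difference of members was -0.53 and that of all probe sets -0.003. The lower count was 8 without day 4 replicate A of batch 1, 26 without its replicate B and 7 without day 4 replicate A of batch 2, and it was 35 with the authors' scaling alone and 6 with the omitted array put back. For these fits the share of all probe sets was not computed. Day 4 replicate A of batch 2 was the array on which many leukocyte and interferon members were at their day 1 level. It was the only day 4 array of that batch graded good. Lower in each of these fits were irf1b, which fell by 2.76 ± 0.42 (adjusted p = 0.000205, limma), igl1c1, which fell by 2.69 ± 0.38 (adjusted p = 7.49e-05), and scinlb, which fell by 1.76 ± 0.31 (adjusted p = 0.000737). The glycolytic hk2 fell by 1.54 ± 0.31 and the ATP-binding cassette protein gene abcf2a by 1.04 ± 0.25, also in each fit without 1 array. For snx10a the fall of 1.31 ± 0.34 had an adjusted p of 0.059 without day 4 replicate A of batch 2.

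Day 7 on 7 arrays was lower than day 4 in 4 members, against 1.03% of all probe sets, and higher in 0, against 0.987%. At an unadjusted p under 0.05, 28 were lower and 1 higher, and here too the share of all probe sets was not computed. The shares above hold for adjusted calls only. The 4 were igl1c1, which fell by 2.74 ± 0.44 (adjusted p = 0.00281), irf1b, which fell by 2.66 ± 0.49 (adjusted p = 0.00737), scinlb, which fell by 1.90 ± 0.36 (adjusted p = 0.0094), and an mpx probe set, which fell by 2.62 ± 0.59 (adjusted p = 0.0222). The mpx call was lost without day 4 replicate A of batch 1 (adjusted p = 0.13) or of batch 2 (adjusted p = 0.063), and without day 7 replicate A (adjusted p = 0.07) or B (adjusted p = 0.072) of batch 1. Without day 4 replicate B of batch 1 the count was 8 and without its replicate A it was 3, and no share of all probe sets was computed for these fits. The 4 members belonged to the leukocyte, interferon and cytoskeleton groups, and no egg envelope gene was among them. The median difference was nevertheless -1.11 in the egg envelope and oocyte group. It was -0.62 in the leukocyte, -0.64 in the interferon and -0.34 in the cytoskeleton group, and 0.03 over all probe sets. Differences between groups were not tested. At days 10 and 14 the member zpax1 was called lower than at day 4, by 1.39, but 26 of 41 alternatives lost that call. The leading zp3.1 probe set differed by -1.39 ± 0.63 (adjusted p = 0.233).

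The day 0 difference was also compared between batches. The limma interaction called 10 members, against 17.7% of all probe sets, batch 1 being above batch 2 in 2 and below it in 8. The 2 were ahsa1b and mhc1ufa. The estimate for batch 1 rests on 1 array of day 0, which had the highest scale factor of those used and is assumed to vary like the other groups, so a batch difference and that array cannot be told apart. In lcp2a the difference was -0.39 in batch 1 and 3.17 in batch 2 (adjusted p of the batch difference = 0.00484, limma), and in psmb13a it was -2.37 and 1.21 (adjusted p = 0.0224).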

How the data were processed

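The deposited intensity of each probe set is a linear signal that the submitters' notes credit to MAS5. No version was given. Its 2% trimmed mean was 500 on every array, although the labels give a higher target for batch 2. No detection calls were used, so dim values have no stated background. Precision is limited by how many arrays there were. Of 15617 probe sets, 115 controls were left out. The 31 arrays were quantile normalized and log2(signal + 32) was used. The log2 change of a dim gene is understated and depends on the offset.

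Symbols came from the array annotation. Current symbols replaced them by Entrez ID in 10711 probe sets, 84 kept theirs, while 135 probe sets had several symbols and 4572 none. Tests used limma 3.58.1 in R 4.3.3 (two-sided, 5 hybridization runs as covariate, 21 residual degrees of freedom), with Benjamini-Hochberg adjustment over 15502 probe sets and calls at an adjusted p under 0.05. The fit was also run on simulated data with independent noise and no run or array quality effects. That run therefore does not bear on the calls given here.

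The members and lists were chosen with earlier results of these data known. Named are the 20 highest scores, up to 4 members of each list, the 4 largest rises and falls of day 0, the 3 lowest members and the 3 next outside, and genes with more than 1 member probe set. Other genes, the role groups and 5 of the lists were chosen after values were seen. The study describes the lettered arrays as biological duplicates. Separate preparations are not stated, so p-values may measure technical spread only. Alternatives changed the scaling, offset, arrays, covariate and dim filter. Promoter sequences were not analysed here. Most same-lettered arrays did not deviate together, and letters were not treated as pairs. The correlation of their deviations had a median of -0.03 in batch 1 and 0.018 in batch 2. It was over 0.1 in 0 of 10 pairs of batch 1 and 11 of 41 of batch 2. The highest was 0.612, and several of the 11 pairs also shared a run.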

Additional observations from a re-analysis of the deposited data

Results flagged for a closer look

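Some values lay far from those of the other arrays of their day and batch. The check covered 130 sets of 4 or 5 arrays over 65 named probe sets and found 11 outlying values. By chance about 1 set in 20 holds such a value. Several of the 11 lie on the same array and are not independent, so an excess over chance was not tested. Of the day 4 arrays of batch 2 only replicate A was graded good, so an outlying array need not be the poorer one. On day 4 replicate A of batch 2, normalized signals were 4769.6 for scinlb (others 792.5 to 1035.6), 2780.6 for aif1l, an actin-binding protein (388.6 to 501.1), 407.5 for card9 (41.2 to 50.4) and 8.6 for scn8aa (31.97 to 37.7). On day 4 replicate B of that batch they were 433.8 for zp3f.1 (57.9 to 86.8) and 1152.9 for mapk14a (2369.4 to 2686.9), and on replicate D 138.6 for ppm1db (234.0 to 258.2). On day 7 replicate A they were 84.7 for dusp7 (377.7 to 532.8), 110.7 for hk2 (540.3 to 915.8) and 49.8 for ppm1db (175.2 to 268.3), and on day 7 replicate D 41.9 for zgc:171474 (13.5 to 15.0).

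The limma interaction of batch with the difference of day 0 from days 4 to 14 passed the threshold in 10 members (Benjamini-Hochberg adjustment). It did so in 17.7% of all probe sets, so members were not called more often than probe sets in general. Batch 1 minus batch 2 was 2.17 for ahsa1b and 2.33 for mhc1ufa. It was -1.43 for sri, -3.87 for si:dkey-102g19.3, -2.29 for ppm1db, -3.59 for psmb13a, -2.09 for malt2, -1.84 for rp2, -3.56 for lcp2a and -1.39 for mob1a, all on the log2 scale. Batch 1 contributed 1 array of day 0, assumed to vary like the other groups, so these values may be those of that array.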

How the results depend on the processing

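Of the 100 members, the rule kept 65 with the authors' scaling alone, 51 with arrays graded good, 21 in batch 1 alone, 17 in batch 2 alone, 55 with medians, 50 with a list of 50, and 43 without the 2 arrays highest in egg envelope genes (chosen after seeing the data). Leaving out 1 array kept 55 (without batch 2 day 1 replicate B) to 100. For day 0 against later days, the higher count was 20 with good arrays and 9 in batch 1 alone, where 2 were lower, and 20 to 38 with 1 array left out. For days 10 and 14 the lower count was 35 with the authors' scaling, 6 with the omitted array put back, 11 in batch 2 alone and 2 in batch 1 alone, and 7 to 26 with 1 array left out. For day 7 the lower count was 7 with good arrays, 0 with the omitted array and 0 in batch 1 alone, and 3 to 8 with 1 array left out. The counts of 0 stayed at 0 with 1 array left out. With a replicate block in place of run the counts were 25, 18 and 5. The share of all probe sets called was not computed for any alternative. A changed count may therefore follow the number called over all probe sets. The day 0 difference reversed in batch 1 alone for si:dkey-102g19.3 (-1.17), ptpn6 (-0.21) and lcp2a (-0.39). Of 44 called results of named genes, only 5 kept their call under every alternative. Of 1802 pairs of such a result and an alternative, most of them fits without 1 array, 1577 passed the threshold and 222 kept only their direction. The cause was not tested. Without detection calls, the 27 members among the lowest 25% of probe sets by mean level have no stated background.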
